A study of Mus musculus with 6 samples.

Results

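The 9 genes described here encode parts of the inflammasomes and of the pyroptosis pathway they start. They were chosen by name, 4 sensors (*Aim2*, *Nlrp3*, *Nlrp10* and *Nlrc4*), the adaptor *Pycard*, the caspases *Casp1*, *Casp4* and *Casp8* and the executioner *Gsdmd*, and all 9 were found among the 24982 genes listed for each library. RNA was sequenced from mouse keratinocyte lines of the C57/BL6 strain that came from neonatal skin and received no treatment. There were 3 KSFM-Ca2+ and 3 DKSFM libraries. KSFM-Ca2+ cells were derived and kept in a low-calcium serum-free medium. DKSFM cells were KSFM-Ca2+ cells that had been moved to, and had adapted to, a defined serum-free medium with more calcium. The lines differ in medium, in adaptation and in culture history together, and these cannot be told apart. All DKSFM libraries but only replicate 3 of the KSFM-Ca2+ libraries were marked as combined, without an explanation, so this mark largely runs with the line. It is not stated whether the 3 libraries of a line came from separate cultures, so the p-values measure the spread between these libraries, which may be technical.

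Inflammasomes are protein platforms that assemble in the cytosol when a sensor meets foreign or misplaced DNA, bacterial products or signs of cell damage. The sensor recruits the adaptor ASC, the product of *Pycard*, which gathers and activates caspase-1. Caspase-1 matures the cytokines IL-1 beta and IL-18 and cuts gasdermin D, whose released end forms pores in the plasma membrane, and the lytic death that follows is called pyroptosis. Keratinocytes are a known site of inflammasome activity in human skin, and mouse and human keratinocytes are known to differ in how they use this pathway.

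Each value is a coverage, the mean number of reads over each base of a gene, given in steps of 0.1. It is a value per base, so levels of different genes are set side by side on that scale, but how coverage was computed is not stated and such comparisons are approximate. Library totals, as coverage added up over all genes, were 1601676.1, 1238410.7 and 1057750.5 in KSFM-Ca2+ replicates 1, 2 and 3 and 1174348.4, 1239437.8 and 1170674.9 in the DKSFM replicates, and values were normalized for this. All 7 basal keratinocyte markers were covered in both lines, as the label has it, though not alike. Summed over 7 markers, normalized coverage was 20757, 20916 and 20591 in the KSFM-Ca2+ libraries and 49893, 46134 and 50282 in the DKSFM libraries, most of it from *Krt14*. *Itgb4* went the other way, from 324 in the KSFM-Ca2+ to 194 in the DKSFM cells by mean, and *Trp63* and *Itga6* had small log2 fold changes of 0.13 and 0.14. Of 10 myeloid markers, 3 were listed at 0 in every library and 7, these included, at no more than 0.1 in any. The most abundant was *Cd68*, a lysosomal gene, and the summed level was 11.1, 11.2 and 13 in the KSFM-Ca2+ and 14.8, 19.6 and 21.7 in the DKSFM libraries. Of 5 Langerhans and dendritic cell markers, 3 were listed at 0 in every library, and *H2-Eb1* held nearly all of the sum, which was 0.386, 0.497 and 0.713 against 10.4, 10.2 and 9.84. All 3 T cell and all 4 mast cell markers were at 0 throughout. Among 6 melanocyte, 6 fibroblast and 4 endothelial markers, the most abundant were *Mitf*, *Pdgfra* and *Pecam1*, with summed levels of no more than 18.9, 2.36 and 8.38 in any library, and 2, 5 and 1 of these markers were listed at 0 in every library. *H2-Eb1*, *Mitf*, *Pecam1*, *Pdgfra* and *Cd68* were higher in the DKSFM cells, as *Pycard* and *Casp1* were, with log2 fold changes of 4.13, 2.31, 1.42, 0.95 and 0.60. At levels too low for a test, *Fcer1g* (0.0773, 0.0993 and 0.238 against 0.858, 0.303 and 0.642), *Spi1* (0 in each against 0.107, 0.202 and 0.214) and *Kdr* (0.0773, 0.0993 and 0 against 0.215, 0.202 and 0.214) were also higher in every DKSFM library. Other markers of these lists had the lower mean in the DKSFM cells, with the lines overlapping, *Pmel* (0.598 in the KSFM-Ca2+ and 0.347 in the DKSFM cells, not past the threshold), *Tek* (0.263 and 0.212), *Mlana* (0.0662 and 0) and *Lyz2* (0.0654 and 0). The part of these markers in the results was not tested.

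The pathway was not moved as a block. The adaptor *Pycard* and its caspase *Casp1* were higher in the DKSFM cells, whereas the sensor *Aim2* and the caspases *Casp4* and *Casp8* were higher in the KSFM-Ca2+ cells. Of the 9 genes, 5 had enough coverage to be tested, which took a normalized value of 0.5 or more in 3 or more of the libraries. In limma's test, 3 were lower and 2 were higher in the DKSFM cells at an adjusted p under 0.01, all 5 by at least 2-fold. Such calls were common in these lines, 36.8% of the 12450 tested genes being lower and 35.6% higher, or 10.5% and 13.3% by at least 2-fold. *Aim2*, *Pycard* and *Casp1* entered the test through the line where each was high, so that they had to differ, and the count is given as a description. In bulk samples such as these, fewer cells that use a gene and less RNA per cell cannot be told apart.

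**Figure D1:**
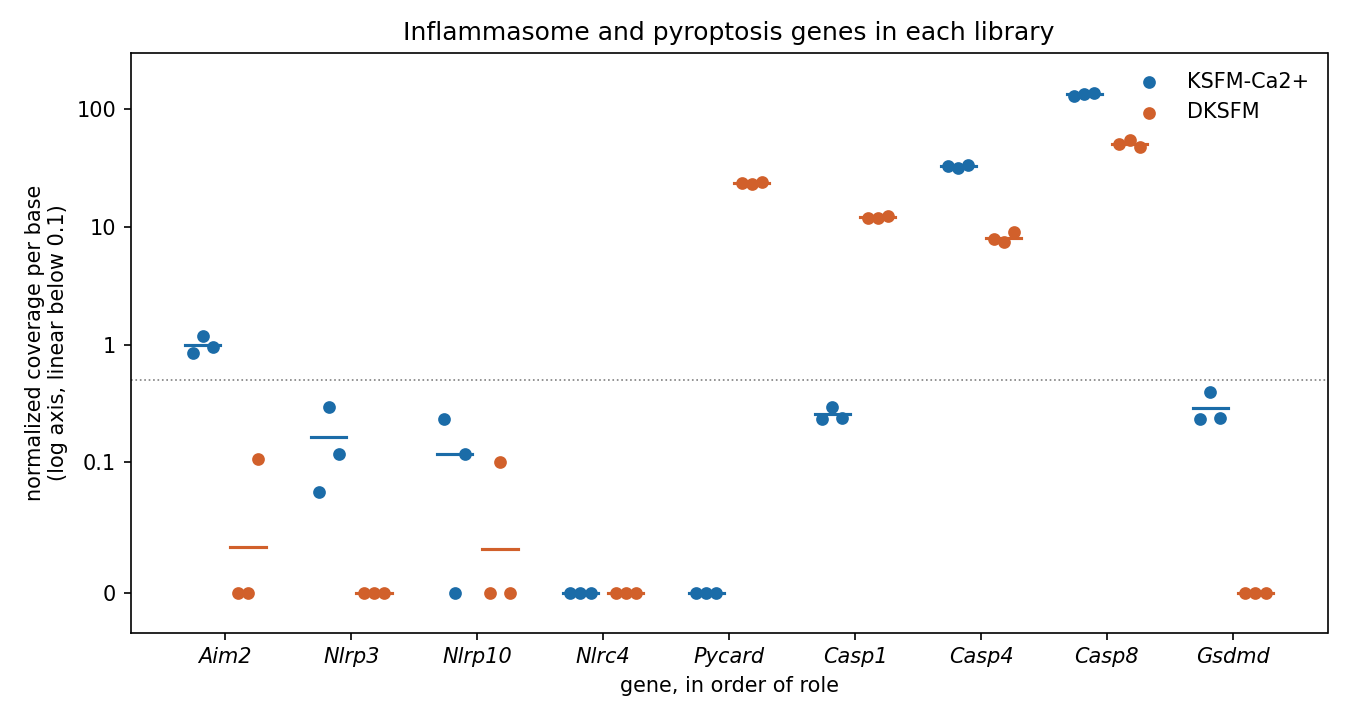
Normalized coverage per base (log axis, linear below 0.1) of the 9 genes in each library, with a point per library and a bar at the mean of the 3 libraries of a line, and the dotted line at 0.5, the level used to choose genes for the test. *Pycard* and *Casp1* were high in the DKSFM libraries alone, and *Casp4* and *Casp8* were present in both lines and higher in the KSFM-Ca2+ libraries.

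*Aim2* encodes a sensor of double-stranded DNA in the cytosol and lies on chromosome 1 from 173349547 to 173466040 (GRCm38.p6, as are all positions here). Its normalized coverage was 0.85, 1.19 and 0.951 in the KSFM-Ca2+ libraries and 0, 0 and 0.107 in the DKSFM libraries. All 3 KSFM-Ca2+ libraries were above all 3 DKSFM libraries, at a low level. The log2 fold change was -3.09 with a standard error of 0.37 (adjusted p = 7.58e-05, limma). *Aim2* entered the test through the KSFM-Ca2+ libraries alone, so the p-value is given as a description. A step of 0.1 in *Aim2* stands for 0.384 to 3.34 reads of 85 bases, depending on which of its transcripts is counted. The size of the fold therefore rests on the 0.1 added before taking logarithms, and with 1 added it was -0.95, which is under 2-fold.

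*Nlrp3* encodes the sensor of membrane damage and potassium loss and lies on chromosome 11 from 59541569 to 59566955. Its normalized coverage was 0.0773, 0.298 and 0.119 in the KSFM-Ca2+ libraries, and it was listed at 0 in all 3 DKSFM libraries. Every KSFM-Ca2+ library held a trace of *Nlrp3*, which was too little for a test. *Nlrp10*, on chromosome 7 from 108921853 to 108930158, encodes a family member without the usual leucine-rich repeats. It had 0.232, 0 and 0.119 in the KSFM-Ca2+ libraries and 0, 0.101 and 0 in the DKSFM libraries. The lines overlapped in *Nlrp10*, and no difference was detectable at this depth, a step of 0.1 standing for 5.3 reads. *Nlrc4*, which acts with the NAIP proteins in sensing bacterial flagellin, was listed at 0 in all 6 libraries (chromosome 17 from 74426255 to 74459144).

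*Pycard* (chromosome 7 from 127991373 to 127993867) encodes ASC, the adaptor between sensor and caspase-1. None of the 3 KSFM-Ca2+ libraries held it above a listed 0, and its normalized coverage was 23.6, 23.3 and 24.1 in the DKSFM libraries. The DKSFM libraries lay close together, and *Pycard* was not seen in the other line at a step worth 0.58 to 4.47 reads. The fitted log2 fold change was 7.89 with a standard error of 0.13 (adjusted p = 1.35e-09, limma). *Pycard* entered the test through the DKSFM libraries alone, and the KSFM-Ca2+ values, all 0, add no spread. The standard error and p-value therefore do not measure the spread in that line and are given as a description. That fitted size is no bound, since with one line at 0 it depends on the pseudocount, being 4.62 with 1 added. In the DKSFM cells the level of *Pycard*, 23.7 ± 0.374 (SD, n = 3), exceeded 48.2% of tested genes.

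The 3 tested genes whose pattern over the 6 libraries was nearest to that of *Pycard* were *Sectm1b*, *Tgm5* and *Cyp4b1*, with root mean square differences of 0.0515, 0.0817 and 0.0847 between their centred log2 values. Like *Pycard*, all 3 were listed at 0 in every KSFM-Ca2+ library. In the DKSFM libraries normalized coverage was 22.1, 21.3 and 23.1 for *Sectm1b*, 21.1, 20.8 and 24.7 for *Tgm5* and 26.1, 27.2 and 25.9 for *Cyp4b1*. Any gene at 0 in the KSFM-Ca2+ libraries and at a level like that of *Pycard* in the DKSFM libraries comes out near it. The likeness is thus a description, and shared control was not tested.

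*Casp1* encodes caspase-1, the protease that matures IL-1 beta and IL-18, and lies on chromosome 9 from 5298517 to 5307281. Its normalized coverage was 0.232, 0.298 and 0.238 in the KSFM-Ca2+ libraries and 11.9, 11.9 and 12.4 in the DKSFM libraries. The 3 DKSFM libraries were nearly equal, and all were far above the KSFM-Ca2+ libraries, which held only a trace. The log2 fold change was 5.10 with a standard error of 0.13 (adjusted p = 1.09e-08, limma), and it was 3.38 with 1 added before taking logarithms. *Casp1* entered the test through the DKSFM libraries alone, so the p-value is given as a description. By mean level, *Casp1* exceeded 3.34% of tested genes in the KSFM-Ca2+ cells and 33.9% in the DKSFM cells.

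*Casp4*, the gene of the mouse protease also known as caspase-11, which binds bacterial lipopolysaccharide in the cytosol and can cut gasdermin D itself, lies beside *Casp1* on chromosome 9 from 5308849 to 5336791. Its normalized coverage was 33.2, 31.4 and 33.4 in the KSFM-Ca2+ libraries and 7.83, 7.47 and 9.09 in the DKSFM libraries. The lines did not overlap, and here the KSFM-Ca2+ libraries were the higher ones. Mean levels of *Casp4* were 32.6 ± 1.1 and 8.13 ± 0.85 (SD, n = 3 each), a 4.01-fold difference. The log2 fold change was -2.0 with a standard error of 0.08 (adjusted p = 1.1e-07, limma). *Casp1* and *Casp4* thus changed in opposite directions although their midpoints are 19.9 kb apart. *Casp12*, the next tested gene at 56.3 kb from *Casp1*, had a log2 fold change of 0.22 (adjusted p = 0.0293), which did not pass the threshold. *Casp1*, *Casp4* and *Casp12* are related in sequence, and how reads that match several of them entered the listed coverage is not stated.

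RefSeq promoter windows of 300 bases, from 250 before to 50 after the start of a transcript, were matched for 7 of the 9 genes. Those of *Casp1*, *Casp4* and *Pycard* are shown because *Casp1* and *Pycard* rose together while the neighbour *Casp4* fell. The windows are chr9:5298267-5298566 on the plus strand for *Casp1*, chr9:5308599-5308898 on the plus strand for *Casp4* and chr7:127993818-127994117 on the minus strand for *Pycard* (GRCm38.p6), each read from 5′ to 3′, with capitals for matches to the motifs searched.
Casp1: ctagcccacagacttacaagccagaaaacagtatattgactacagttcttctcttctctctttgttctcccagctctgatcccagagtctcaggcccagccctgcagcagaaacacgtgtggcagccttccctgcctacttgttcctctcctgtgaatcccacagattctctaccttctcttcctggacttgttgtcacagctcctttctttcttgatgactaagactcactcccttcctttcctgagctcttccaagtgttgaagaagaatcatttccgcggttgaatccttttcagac
Casp4: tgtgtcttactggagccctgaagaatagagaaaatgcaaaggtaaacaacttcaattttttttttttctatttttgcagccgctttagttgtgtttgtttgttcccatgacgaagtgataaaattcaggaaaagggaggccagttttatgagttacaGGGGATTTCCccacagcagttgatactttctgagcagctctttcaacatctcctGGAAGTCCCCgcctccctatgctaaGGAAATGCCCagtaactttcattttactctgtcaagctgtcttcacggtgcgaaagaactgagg
Pycard: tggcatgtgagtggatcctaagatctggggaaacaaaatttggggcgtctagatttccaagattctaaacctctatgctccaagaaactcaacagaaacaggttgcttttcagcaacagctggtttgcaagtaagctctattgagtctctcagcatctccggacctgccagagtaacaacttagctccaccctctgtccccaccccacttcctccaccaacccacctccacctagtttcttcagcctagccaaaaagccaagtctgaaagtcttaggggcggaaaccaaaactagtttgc

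On both strands the windows were searched for an NF-kappaB motif (GGGNNNTTCC), a STAT motif (TTCNNNGAA), an AP-1 motif (TGACTCA or TGAGTCA) and an IRF motif (GAAANNGAAA). Of all 32851 promoter windows of this length, 5.56% held the NF-kappaB motif, 8.3% the STAT motif, 5.2% the AP-1 motif and 3.44% the IRF motif. The *Casp4* window held 3 matches to the NF-kappaB motif (GGGGATTTCC, GGAAGTCCCC and GGAAATGCCC), the first beginning at position -93 from the start. No match to any of the motifs was present in the windows of *Aim2*, *Nlrp3*, *Nlrc4*, *Pycard*, *Casp1* or *Casp8*. The printed windows held 3 CpG in *Casp1*, 5 in *Casp4* and 3 in *Pycard*, with a median of 7 over all windows. A match describes the letters of the window, and binding was not measured.

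*Casp8*, the initiator caspase of death receptors, which also restrains necroptosis, lies on chromosome 1 from 58795233 to 58847503. Its normalized coverage was 129, 135 and 138 in the KSFM-Ca2+ libraries and 50.7, 55.0 and 47.3 in the DKSFM libraries. *Casp8* was the most abundant of the 9 genes in every library, and the lines did not overlap. Mean levels were 134 ± 4.57 and 51.0 ± 3.89 (SD, n = 3 each), a 2.63-fold difference. The log2 fold change was -1.39 with a standard error of 0.06 (adjusted p = 1.37e-07, limma). *Casp8* was above 84.9% of tested genes in the KSFM-Ca2+ cells and 66.5% in the DKSFM cells.

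*Gsdmd* encodes gasdermin D, the pore former on which pyroptosis by caspase-1 and caspase-11 converges, and lies on chromosome 15 from 75862144 to 75867408. Its normalized coverage was 0.232, 0.397 and 0.238 in the KSFM-Ca2+ libraries, and it was listed at 0 in all 3 DKSFM libraries. The executioner was thus a trace in the KSFM-Ca2+ libraries and was not seen in the DKSFM libraries, which held *Pycard*, *Casp1* and *Casp4*. *Gsdmd* did not reach the level needed for a test, and a step of 0.1 stands for 0.488 to 2.11 of its reads. Without that filter its log2 fold change was -1.93 (adjusted p = 0.000367, limma). That size rests on the 0.1 added before taking logarithms. The DKSFM values, all 0, add no spread to the p-value, so both are given as a description.

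Ordered by mean normalized coverage, the KSFM-Ca2+ cells had *Casp8* at 134, *Casp4* at 32.6 and *Aim2* at 0.997, each apart from the next by more than the spread. *Gsdmd* at 0.289, *Casp1* at 0.256, *Nlrp3* at 0.165 and *Nlrp10* at 0.117 came after, and neighbours in this group overlapped. *Pycard* and *Nlrc4* were last, at 0. In the DKSFM cells the order was *Casp8* at 51.0, *Pycard* at 23.7, *Casp1* at 12.1 and *Casp4* at 8.13, with no overlap between neighbours. *Aim2* at 0.0357 and *Nlrp10* at 0.0337 were indistinguishable, and *Nlrp3*, *Nlrc4* and *Gsdmd* were listed at 0.

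**Figure D2:**
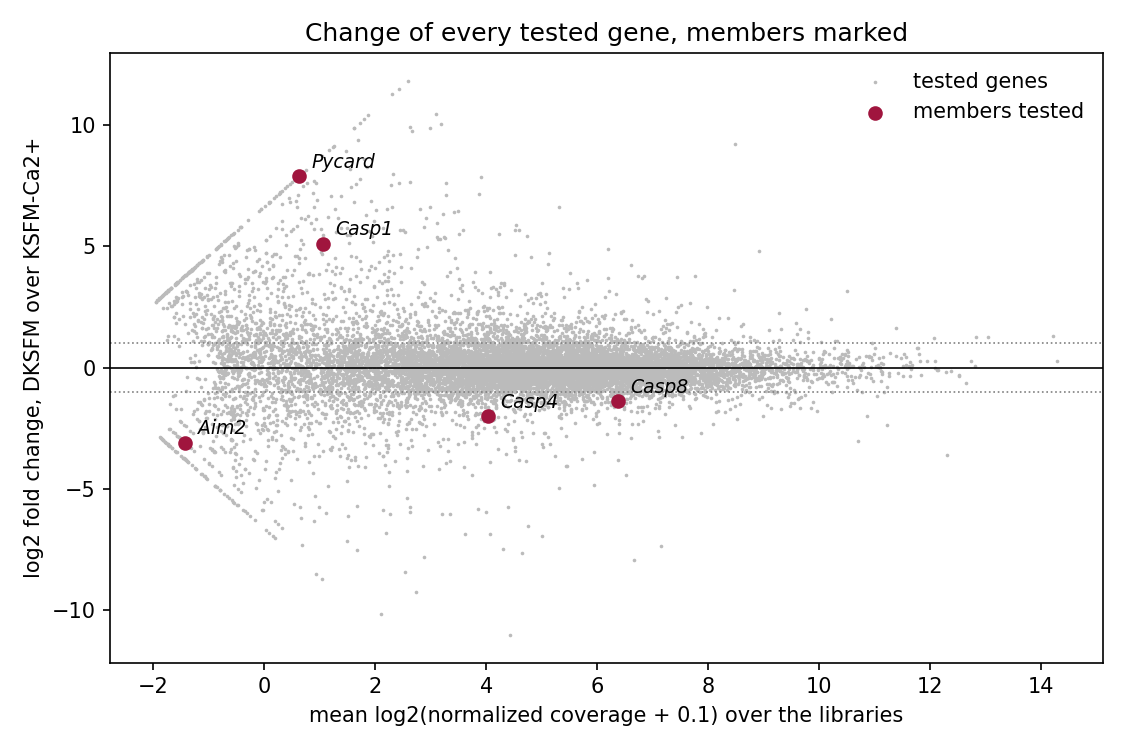
Log2 fold change (DKSFM over KSFM-Ca2+) against the mean of log2(normalized coverage + 0.1) for all 12450 tested genes in grey, with the 5 tested inflammasome and pyroptosis genes in red and dotted lines at a 2-fold change. *Pycard* lies on the edge formed by genes at 0 in the KSFM-Ca2+ libraries, where the fold is set by coverage and pseudocount, while *Casp4* and *Casp8* lie among well covered genes.

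Within 10 Mb on either side of a member, the median log2 fold change of the other tested genes, relative to all tested genes, was -0.43 around *Aim2*, -0.52 around *Casp8*, -0.38 around *Pycard*, -0.18 around *Casp1* and -0.15 around *Casp4*. The falls of *Aim2*, *Casp4* and *Casp8* had the same sign as their surroundings, and the rises of *Pycard* and *Casp1* had the other sign. How far such medians vary along the genome was not tested. Around the untested genes it was -0.15 for *Nlrp3*, -0.36 for *Nlrp10*, 0.19 for *Nlrc4* and 0.04 for *Gsdmd*. Of the 10 nearest tested genes, 1 on either side of each tested member, 4 had a fold change of the same sign as the member and 6 of the other sign. Of these 10, 2 were *Casp1* and *Casp4*, each the neighbour of the other, and 3 did not pass the threshold.

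**Figure D3:**
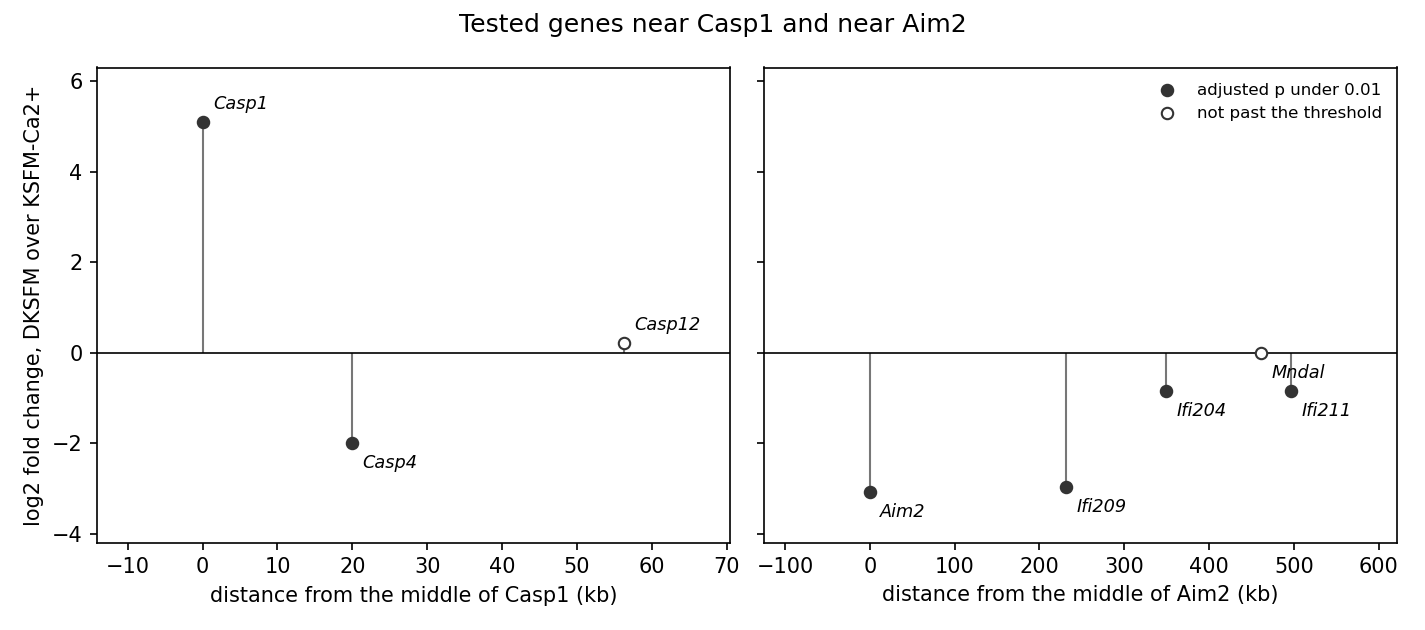
Log2 fold change (DKSFM over KSFM-Ca2+) of tested genes within 500 kb of *Casp1* and of *Aim2*, placed by the distance between midpoints in kb, with filled points at an adjusted p under 0.01 and open points for genes not past it. *Casp1* (5.10) and *Casp4* (-2.0) point in opposite directions, and *Aim2* (-3.09) and *Ifi209* (-2.97) in the same direction.

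The wider pathway was described with 9 lists that hold 90 distinct listed genes, of which 64 were tested, 36 being lower and 18 higher in the DKSFM cells. These are 56.2% and 28.1%, beside 36.8% and 35.6% of all tested genes, the shares against which each list count is to be read. Of the 64, 7 genes (*Ifi203*, *Zbp1*, *Gsdma*, *P2rx7*, *Gbp7*, *Ripk3* and *Il1a*) reached 0.5 in all libraries of 1 line and not in all of the other, so that they entered the test through the line where each was high, and their calls are given as a description. Among 9 other inflammasome sensors none was tested and 7 were listed at 0 in every library. *Naip2*, which recognises a bacterial secretion system and passes the signal to *Nlrc4*, was the most abundant, with 0.618, 0.596 and 0.356 in the KSFM-Ca2+ libraries and 0 in each DKSFM library. No sensor of this list reached the mean level that *Aim2* had in the KSFM-Ca2+ cells.

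Of 9 tested genes for AIM2-like receptors and cytosolic DNA sensing, 6 were lower and 2 higher, with a median log2 fold change of -0.86. *Ifi209*, which lies 231.6 kb from *Aim2*, had 12.6, 13.0 and 12.5 in the KSFM-Ca2+ libraries and 1.18, 2.02 and 1.5 in the DKSFM libraries. Like *Aim2*, it was higher in every KSFM-Ca2+ library (adjusted p = 9.19e-07 for a log2 fold change of -2.97 with a standard error of 0.17). Log2 fold changes were -1.37 for the DNA sensor cGAS (listed as *Mb21d1*), -2.09 for *Zbp1*, a sensor of Z-form nucleic acid, and -1.78 for *Ifi203*. With 1 added, *Zbp1* had -1.10 and *Ifi203* -0.84, which is under 2-fold. *Trex1*, a nuclease that removes cytosolic DNA, rose by 1.18. *Ifi202b*, whose product can bind DNA and hold back AIM2, was the most abundant of the list, with 126 ± 10.4 in the KSFM-Ca2+ and 157 ± 3.8 in the DKSFM cells (SD, n = 3 each; log2 fold change 0.33, adjusted p = 0.000905, limma). The *Ifi200* genes are close relatives that can share reads, which makes their single values uncertain.

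Downstream of the caspases, 2 of 10 other gasdermin and membrane rupture genes were tested, *Gsdma* and *Ninj1*, and 1 was called. *Gsdma*, an epithelial gasdermin, had 0.386, 0.298 and 0.119 in the KSFM-Ca2+ libraries and 6.87, 8.38 and 5.35 in the DKSFM libraries. All DKSFM libraries were above all KSFM-Ca2+ libraries, opposite to *Gsdmd* (adjusted p = 3.55e-06 for a log2 fold change of 4.30 with a standard error of 0.31). Its fold was 2.62 on the log2 scale with 1 added, and 4.92 without KSFM-Ca2+ replicates 1 and 2. *Ninj1*, which ruptures the membrane after pore formation, was well covered in both lines at 57.3 ± 3.71 and 48.8 ± 5.13 (SD, n = 3 each), and the lines overlapped. Its log2 fold change of -0.24 did not pass the threshold (adjusted p = 0.0237, limma). It passed without DKSFM replicate 3, in a fit whose filter asked for 2 libraries (-0.32, adjusted p = 0.00405, limma).

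Of 10 tested genes for priming and activation, 8 were lower and 1 was higher, with a median of -0.94. *P2rx7*, the ATP-gated channel upstream of *Nlrp3*, had 3.32, 4.47 and 3.21 in the KSFM-Ca2+ libraries and 0.107, 0.202 and 0 in the DKSFM libraries. It was near 0 in all DKSFM libraries (log2 fold change -4.34, or -2.07 with 1 added). The guanylate-binding proteins *Gbp7*, *Gbp2* and *Gbp3*, which act on intracellular bacteria, had log2 fold changes of -2.46, -2.07 and -1.75, and *Irf1*, a factor that induces them, one of -1.5. With 1 added, *Gbp7* had -0.95, which is under 2-fold. *Txnip*, a thioredoxin-binding protein linked to *Nlrp3*, went the other way, from 106 ± 1.48 to 600 ± 61.4 (SD, n = 3 each), a log2 fold change of 2.49. *Nek7*, the kinase that *Nlrp3* needs, had 133 ± 6.4 and 144 ± 6.21, and its lines overlapped.

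All 5 tested brakes on the pathway passed the threshold, 4 lower and 1 higher, with a median of -1.09. *Serpinb1a*, which encodes an inhibitor of inflammatory caspases, had 1.08, 0.596 and 0.832 in the KSFM-Ca2+ libraries and 20.8, 21.2 and 23.1 in the DKSFM libraries. It was thus high in the same libraries as *Casp1* (adjusted p = 1.11e-07 for a log2 fold change of 4.57 with a standard error of 0.18, or 3.64 with 1 added). Log2 fold changes were -0.84 and -1.09 for *Dpp9* and *Dpp8*, which encode proteases that hold back NLRP1, -1.37 for *Irgm1* and -1.28 for the NF-kappaB inhibitor *Tnfaip3*.

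Of 13 tested partners of caspase-8 in cell death, 9 were lower and 2 higher, with a median of -0.57. *Ripk3*, the kinase of necroptosis that *Casp8* restrains, had 36.3, 37.5 and 43.0 in the KSFM-Ca2+ libraries and 0.536, 0.505 and 0.428 in the DKSFM libraries. *Mlkl*, the necroptotic pore former downstream of it, had 200, 201 and 216 against 18.7, 18.1 and 18.3. The lines were far apart in both genes, with log2 fold changes of -6.05 (standard error 0.11, adjusted p = 2.39e-09; -4.74 with 1 added) and -3.48 (standard error 0.04, adjusted p = 3.75e-10). *Cflar*, the caspase-like regulator of caspase-8 and a neighbour of *Casp8* on chromosome 1, had a log2 fold change of -2.0, and the adaptor *Fadd* one of -1.02. The receptor *Tnfrsf1a* rose by 1.05. *Ripk1* had 42.4 ± 0.89 and 40.5 ± 3.02 (SD, n = 3 each), and its lines overlapped.

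Among 7 other caspases, all tested, 2 were lower and 3 higher, with a median of 0.22. *Casp14*, the caspase of the cornifying epidermis, had 0.927, 0.894 and 0.832 in the KSFM-Ca2+ libraries and 11.3, 11.1 and 11 in the DKSFM libraries, and was low and high in the same libraries as *Casp1* (log2 fold change 3.51, or 2.69 with 1 added). *Casp2* and *Casp6* rose by 1.13 and 1.11.

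Of 5 tested output cytokine genes, 1 was lower and 3 were higher, with a median of 0.44. *Il18*, a substrate of caspase-1, had 5.72, 7.25 and 4.40 in the KSFM-Ca2+ libraries and 126, 152 and 133 in the DKSFM libraries, with a log2 fold change of 4.57, while *Il1a* had 102, 106 and 121 against 0.429, 0.606 and 0.214 (log2 fold change -7.80, or -6.29 with 1 added). *Il1b*, the other main substrate, had at most 0.119 in the KSFM-Ca2+ libraries and was listed at 0 in the DKSFM libraries. *Hmgb1*, released by dying cells, was the most abundant, at 183 ± 3.33 and 248 ± 4.45 (SD, n = 3 each). The DKSFM libraries thus held RNA for *Pycard*, *Casp1* and *Il18*, with *Gsdmd* listed at 0. Whether the same cells held these RNAs was not measured.

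All 14 genes of ESCRT membrane repair, which removes gasdermin pores from the membrane, were tested. Of these, 7 were lower and 5 higher, none by 2-fold, with a median of -0.09. *Chmp2a* was the most abundant at 867 ± 24.8 and 1375 ± 15.0 (SD, n = 3 each), *Chmp2b* rose the most, by 0.74, and *Chmp1a* fell by 0.43.

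**Figure D4:**
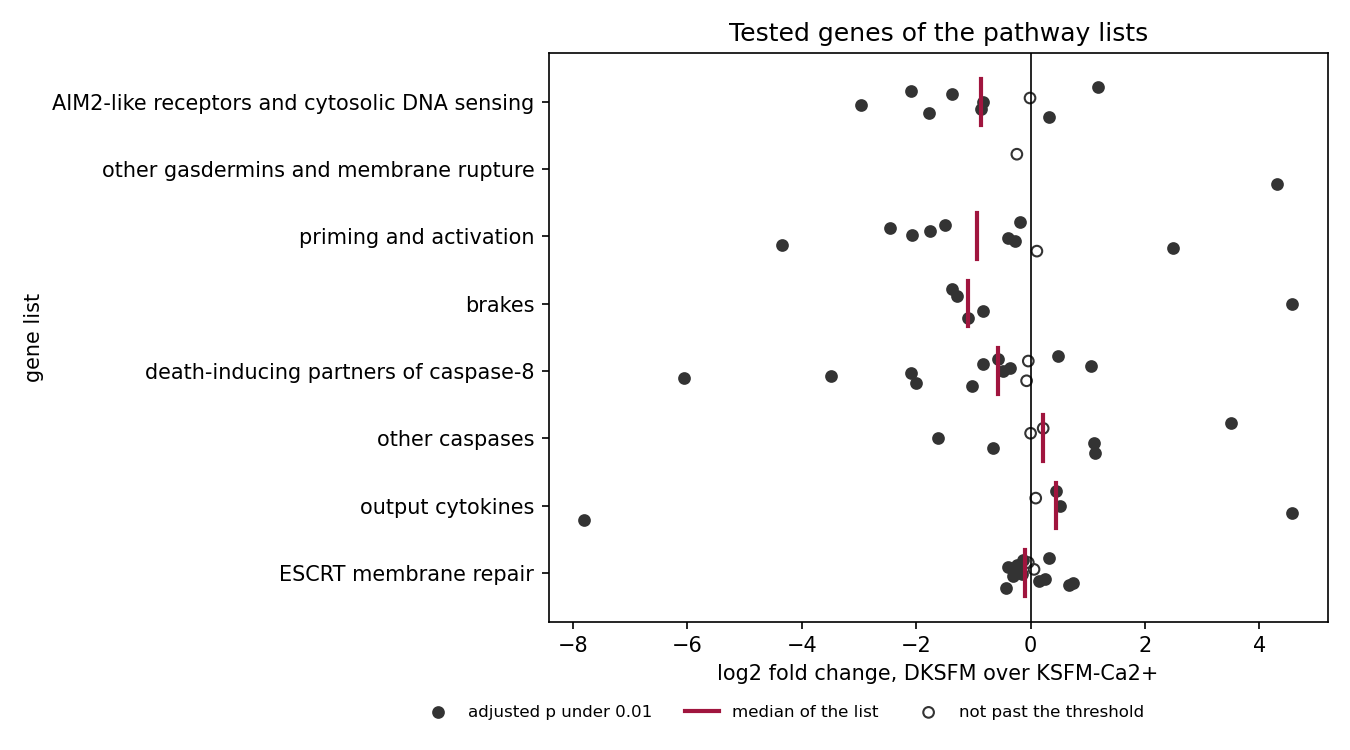
Log2 fold change (DKSFM over KSFM-Ca2+) of each tested gene in the 8 pathway lists that had tested genes, with filled points at an adjusted p under 0.01, open points for genes not past it and a red bar at the median of each list with more than 2 tested genes. *Ripk3* (-6.05) and *Il1a* (-7.80) lie farthest to the left and *Serpinb1a* (4.57) and *Il18* (4.57) farthest to the right.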

How the data were processed

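The authors deposited a signal for each of 24982 genes, its mean coverage by reads at each base, rounded to 1 decimal, in 6 poly(A) RNA-seq libraries. Per the study's methods, single reads of 85 bases were aligned with STAR to mm10, genes were quantified with Salmon and the lines were compared with a count model. How coverage was computed is not given in the sources used here. Some of the libraries, KSFM-Ca2+ replicate 3 and all DKSFM replicates, were marked as combined, without an explanation. What the mark stands for cannot be fully told apart from the line.

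Coverage was normalized with trimmed means of M values, unweighted (trims of 30% of M and 5% of A values, factors from 0.991 to 1.01) and brought to the mean library total. No total to bring libraries to had been set beforehand. The median and the geometric mean were tried after the fits had been seen, while comparing the number of tested genes with earlier results of these data. The median gave the earlier number (12409), the mean was kept, and all are among the alternatives. Genes with at least 0.5 in at least 3 libraries were tested with limma 3.58.1 in R 4.3.3, with an intensity trend, on log2(value + 0.1). Fold changes are on this scale, which understates changes of low genes. P-values are two-sided and adjusted by Benjamini-Hochberg over 12450 genes, with a threshold of 0.01.

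Within a line, 2.65% to 4.67% of tested genes had identical values in a pair of libraries, so none was a duplicate. Named genes were all 9 members and, from each list, the called gene with the largest change each way, the most abundant gene and up to 4 further genes changed at least 2-fold, with *Il1a*, *Il1b* and *Il18* in every case and the 3 genes nearest in pattern to the member that changed most. The members and lists were chosen with earlier results of these data known. *Nek7*, *Ripk1* and *Casp12* fall outside this rule and were named after their values were seen, and some genes that the rule takes are not reported here. Positions and promoters came from RefSeq on GRCm38.p6, and reads per step used GENCODE M21 transcript lengths. The alternatives were 2 other scalings, 2 filters, 2 pseudocounts, no trend, a replicate block, an adjusted p of 0.05, and each library left out. Runs with only the libraries marked combined, and with the 2 other library totals, were chosen after seeing the data. For the named genes that are not members, only the 2 scalings had been planned, and every other alternative was added after seeing the data. Tables and figures were made with Python 3.11.15, pandas 2.3.3, numpy 2.4.6 and matplotlib 3.10.9.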

Additional observations from a re-analysis of the deposited data

How the results depend on the processing

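Under 18 alternatives, the 40 tested single genes that the rule for named genes takes gave 704 values, of which 701 kept their direction and their side of the threshold, none reversed and none was lost. The other 3 were *Ninj1*, which passed with the replicate block (adjusted p = 0.00928, limma), without DKSFM replicate 3 and at an adjusted p of 0.05. Of the 40 genes, 3 members and 7 pathway genes entered the test through the line where each was high. No call could be lost at an adjusted p of 0.05, so the counts of kept values are given as a description. *Casp4* ran from -2.08 to -1.88 and *Casp8* from -1.45 to -1.34 on the log2 scale, while *Aim2* (-3.46 to -0.95), *Pycard* (4.62 to 7.94) and *Casp1* (3.38 to 5.18) moved with the pseudocount, as did *Gbp7*, *Ifi203*, *Zbp1*, *P2rx7*, *Gsdma*, *Ripk3*, *Il1a*, *Casp14* and *Serpinb1a*. Values exist only where a gene was still tested. With only the libraries marked combined, 1 KSFM-Ca2+ library stood against 3 DKSFM libraries and was assumed to vary like them, *Aim2* was not tested, and 2 of 4 tested members were lower.

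Asking for 0.5 in all 6 libraries left 2 of the 9 genes tested, *Casp4* and *Casp8*, so that 2 were lower and 0 were higher. Genes higher by at least 2-fold then numbered 1035, against 1655, fewer genes being tested (11124). Without a filter 4 of 8 tested members were lower, the further one being *Gsdmd* (-1.93), while *Nlrp3* (adjusted p = 0.0116) and *Nlrp10* (adjusted p = 0.324) did not pass. Bringing libraries to their median total, a choice tried after the data were seen, left 12409 genes tested, with 4581 lower and 4417 higher. With the geometric mean 12450 genes were tested, as reported. Members called were 3 lower and 2 higher under both.

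Same-numbered libraries did not deviate together (correlations of -0.0085, 0.023 and -0.0205), so no pairing by number was seen. Whether they shared a culture or a day is not stated, and these correlations cannot decide it. With the replicate block 3 members were lower and 2 higher, and over all genes 4438 were lower and 4287 higher. Values listed at 0 or 0.1 limit what can be said of *Aim2*, *Nlrp3*, *Nlrp10*, *Nlrc4* and *Gsdmd*.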
